A study of Mus musculus with 15 samples.

Results

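The receptors described here are T-cell receptor beta chains that recurred among IGRP-tetramer-binding CD8 T cells of different NOD mice. A receptor was a combination of V family, J cluster and amino acid CDR3. Members were chosen by their presence in the tetramer tables: 378 of the 5002 receptors of these tables were found in 2 or more of the 7 tetramer libraries, and the other 4624 were found in 1. The mice were wild-type (WT) NOD and Ifngr-1-mutant NOD animals, 125 days old, from which spleen and non-draining lymph nodes were pooled. Cells were stained with 8 nM of an H-2Kd tetramer carrying IGRP206–214 and separated on a magnetic column. The bound CD8+ cells gave the TET libraries (3 WT and 4 mutant, 2536 to 60164 counts), and CD8+CD44+ cells of the flow-through gave the CD8 libraries (4 WT and 4 mutant, 17116 to 32856 counts). No TET library of WT mouse 4 was used. The tables hold beta chains alone, so neither cell markers nor the paired alpha chain could be checked. Magnetic enrichment does not sort single cells, so a tetramer library can also hold receptors of cells that did not bind.

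NOD mice develop autoimmune diabetes, and IGRP is a protein of pancreatic beta cells that CD8 T cells of these mice recognise. Ifngr1 encodes the ligand-binding chain of the interferon-γ receptor. Each beta chain is made by joining V, D and J segments, with bases trimmed and added at the joints. The CDR3 loop spans that joint and contacts the peptide. A receptor found in several animals is called public, and it can arise from several joining events that give different nucleotide sequences for the same amino acids.

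Whether a recurring receptor had 1 or several nucleotide sequences can be read from the sequences themselves. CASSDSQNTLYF (TRBV13, TRBJ2-4) is shown first because it had the most, 5 in TET libraries. Capitals mark bases that differ from sequence 1, and all 5 encode the same residues.
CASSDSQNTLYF sequence 1: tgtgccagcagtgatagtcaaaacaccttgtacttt
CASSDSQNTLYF sequence 2: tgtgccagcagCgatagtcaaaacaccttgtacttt
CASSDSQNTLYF sequence 3: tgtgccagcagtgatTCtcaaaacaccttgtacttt
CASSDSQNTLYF sequence 4: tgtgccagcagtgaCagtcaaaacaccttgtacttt
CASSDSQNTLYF sequence 5: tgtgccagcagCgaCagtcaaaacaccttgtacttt
Sequence 1 was found in 6 TET libraries, with 1094 and 804 counts in WT TET 1 and 2 and 552, 7, 7 and 1764 counts in mutant TET 1 to 4. Sequence 2 was found in WT TET 2 (146 counts) and mutant TET 4 (5510 counts), and sequence 3 in WT TET 2 (1341 counts) and mutant TET 1 (397 counts). Sequence 4 was found in mutant TET 4 alone (542 counts) and sequence 5 in WT TET 1 alone (33 counts). WT TET 2 and mutant TET 4 each held 3 of the 5. By the V and J boundaries in the deposited tables, 4 of the 5 have no base outside the V and J segments, and sequence 3 has 2 such bases. In these 4 the boundaries overlap (in sequence 1, V ends at base 20 and J starts after base 11), the sequences differ within them, and they were not checked against germline sequence.

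A TRBV13, TRBJ2-2 receptor of 15 residues came second, with 4 nucleotide sequences, again with differences from its first sequence in capitals.
TRBV13 TRBJ2-2 sequence 1: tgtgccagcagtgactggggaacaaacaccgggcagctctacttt
TRBV13 TRBJ2-2 sequence 2: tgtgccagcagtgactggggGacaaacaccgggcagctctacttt
TRBV13 TRBJ2-2 sequence 3: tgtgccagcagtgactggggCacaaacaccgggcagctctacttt
TRBV13 TRBJ2-2 sequence 4: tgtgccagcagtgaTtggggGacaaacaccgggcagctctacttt
Sequence 1 had 41 counts in WT TET 2 and 766 in mutant TET 4, and sequence 2 had 189 in WT TET 2 and 124 in WT TET 3. Sequence 3 (544 counts, mutant TET 4) and sequence 4 (49 counts, mutant TET 1) had 1 library each. The tables place most of the middle of each sequence in the segment TRBD2.

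The receptors below each had a single nucleotide sequence in the TET libraries although they were found in 3 or 4 of them. They are shown because they are the other form that sharing took. Capitals mark bases that the tables assign to no V, D or J segment, here called non-templated.
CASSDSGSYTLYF (TRBV13): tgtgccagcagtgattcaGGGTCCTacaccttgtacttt
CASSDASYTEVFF (TRBV13): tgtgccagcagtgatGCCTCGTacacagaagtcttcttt
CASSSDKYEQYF (TRBV13): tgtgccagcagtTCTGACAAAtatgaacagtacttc
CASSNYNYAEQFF (TRBV13): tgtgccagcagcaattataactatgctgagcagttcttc
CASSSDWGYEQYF (TRBV3): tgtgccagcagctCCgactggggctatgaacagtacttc
The first and second have 7 non-templated bases each and the third has 9. A D segment too short or too trimmed to be named by the tables counts as non-templated here, which raises the number, and overlapping V and J boundaries lower it. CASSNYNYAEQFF has 0, with V ending at base 11 and J starting after base 8, and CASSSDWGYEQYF has 2.

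Sharing was mostly between 2 libraries. Of the 378 receptors, 333 were found in 2 TET libraries, 36 in 3, 6 in 4, 1 in 5 and 2 in 6, and none in all 7. The mutant TET libraries hold more receptors (383 to 2159) than the WT TET libraries (95 to 119). Of the 378 members, 330 were found in mutant TET libraries only, 44 in both strains and 4 in WT TET libraries only. Most single-library receptors were of mutant libraries too, with 814, 1867, 1382 and 308 in mutant TET 1 to 4 and 85, 93 and 75 in WT TET 1 to 3. The number of shared receptors rests on depth and on the large mutant libraries. It was 119 without mutant TET 2, 190 without mutant TET 3 and 243 without mutant TET 1. With entries of 1 count left out it was 235, and with every library thinned to 2536 counts it was 116 to 144 over 20 draws.

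The 378 receptors were a small part of each library's receptors and a large part of its counts. They made up 15.8%, 21.8% and 21.1% of the receptors of WT TET 1 to 3 and 16.9%, 13.5%, 13.7% and 19.6% of those of mutant TET 1 to 4. Of the counts they held 39.4% (exact binomial 95% interval 38.05 to 40.8%), 76.6% (75.9 to 77.3%) and 27.5% (25.8 to 29.3%) in WT TET 1 to 3. In mutant TET 1 to 4 they held 41.9% (41.2 to 42.7%), 44.5% (43.8 to 45.1%), 48.2% (47.5 to 48.9%) and 93.5% (93.3 to 93.7%). Mutant TET 4 and WT TET 2 were the highest of their strains, and the ranges of the strains overlapped. Such intervals cover counting error only. Among the 20 largest receptors of a library, 7, 15 and 7 were members in WT TET 1 to 3, and 9, 13, 12 and 17 in mutant TET 1 to 4. The members were chosen by presence in these same libraries, and a large receptor is easier to detect in a further library, so clone size in TET is a description and was not tested.

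**Figure D1:**
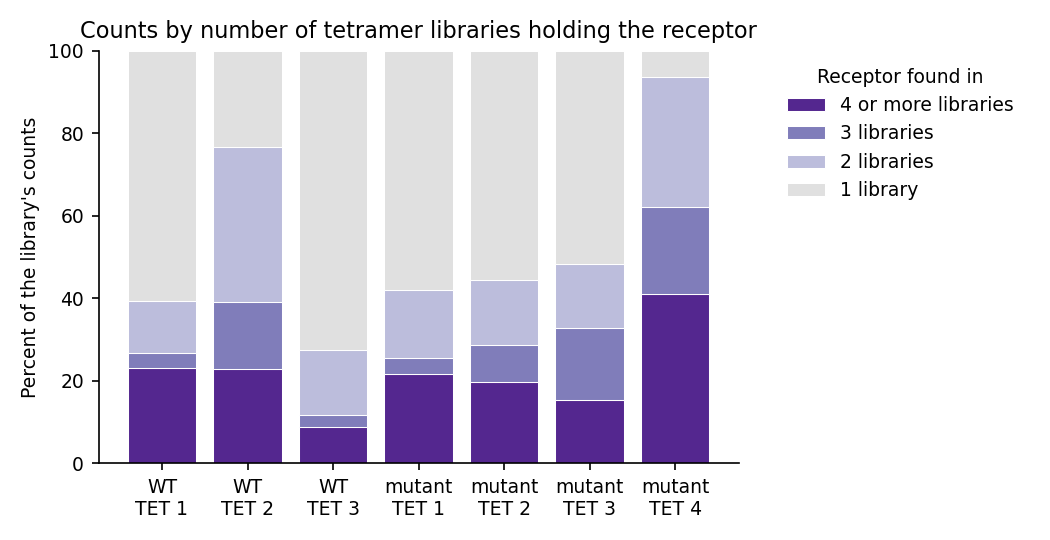
Percent of the counts of each tetramer library (y axis) held by receptors found in 1, 2, 3 or at least 4 of the 7 tetramer libraries, as stacked bars for the 3 WT and 4 mutant libraries (x axis). The purple parts, which are the shared receptors, reach 93.5% in mutant TET 4 and 76.6% in WT TET 2, against 27.5 to 48.2% in the other libraries.

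A typical member was nevertheless small. Its largest share of any TET library had a median of 0.0578% (quartiles 0.0231 and 0.150%), against 0.0173% for single-library receptors (quartiles 0.00455 and 0.0520%). The median share of members was above that of single-library receptors in each of the 7 libraries. The library that held most of a member had 3.59 times the share of the next (median), and at least 10 times the share for 103 of the 378. Of the 361 members that recurred by the same nucleotide sequence, 144 (39.9%) had a holder with 1 count. The share was similar, 7 of 17 (41.2%), for members of which no nucleotide sequence recurred. Whether low counts beside a large holder came from carry-over between libraries was not tested. Leaving out of the smaller library every clonotype that another held at 10 times the count or more left 296 shared receptors.

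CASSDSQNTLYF was found in 6 TET libraries. It had 1127 counts in WT TET 1, 2291 in WT TET 2 and 0 in WT TET 3, and 949, 7, 7 and 7816 counts in mutant TET 1 to 4. These are 22.7% (21.5 to 23.9%), 15.3% (14.7 to 15.9%), 5.49% (5.15 to 5.84%), 0.0312%, 0.0319% and 12.99% (12.7 to 13.3%) of the libraries that held it. It was high in 4 libraries of both strains and low in mutant TET 2 and 3, where its intervals ended at 0.0642% and 0.0656%. In WT TET 3, which had the fewest counts, 0 counts allow a share of up to 0.118%.

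The receptor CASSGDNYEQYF (TRBV13, TRBJ2-7) had 0, 156 and 59 counts in WT TET 1 to 3, and 1985, 1778, 133 and 4506 in mutant TET 1 to 4. Its share reached 11.5% (11.01 to 11.96%) in mutant TET 1 and was between 0.605% and 7.92% in the other 5 libraries that held it. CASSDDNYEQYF, with the same V family and J segment, had 0, 244 and 0 counts in the WT libraries and 704, 129, 777 and 1788 counts in the mutant libraries. These 2 receptors were found in all 4 mutant libraries, and they differ at residue 5, counted from the cysteine at position 1.

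A further 4 receptors had a holder in which they were large and others in which they were small. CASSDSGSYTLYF had 7, 484 and 35 counts in WT TET 1 to 3 and 7893 in mutant TET 4 (13.1%), and 0 in mutant TET 1 to 3. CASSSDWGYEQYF had the same pattern at lower level, with 10, 13 and 4 counts in WT TET 1 to 3 and 1272 in mutant TET 4 (2.11%). Among TET libraries, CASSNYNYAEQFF was found in the mutant ones alone, with 20, 2416, 85 and 34 counts, and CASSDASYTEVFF likewise, with 10, 12, 2376 and 85 counts. The first of these held 10.8% of mutant TET 2 and the second 10.8% of mutant TET 3. In the other mutant TET libraries they held at most 0.387% and 0.141%. Both were also found in WT CD8 libraries. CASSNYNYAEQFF had 19, 7 and 6 counts in WT CD8 1, 3 and 4 and 0 in the mutant CD8 libraries. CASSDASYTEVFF had 28 and 8 in WT CD8 1 and 4 and 18 in mutant CD8 3. The 15-residue receptor had 0, 230 and 124 counts in the WT libraries and 49, 0, 0 and 1310 in the mutant libraries, and here the highest share, 4.89% (4.08 to 5.80%), was in WT TET 3. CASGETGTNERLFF (TRBV13, TRBJ1-4) was small throughout, with 2 counts in WT TET 2 and 19, 50 and 3 in mutant TET 1 to 3.

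**Figure D2:**
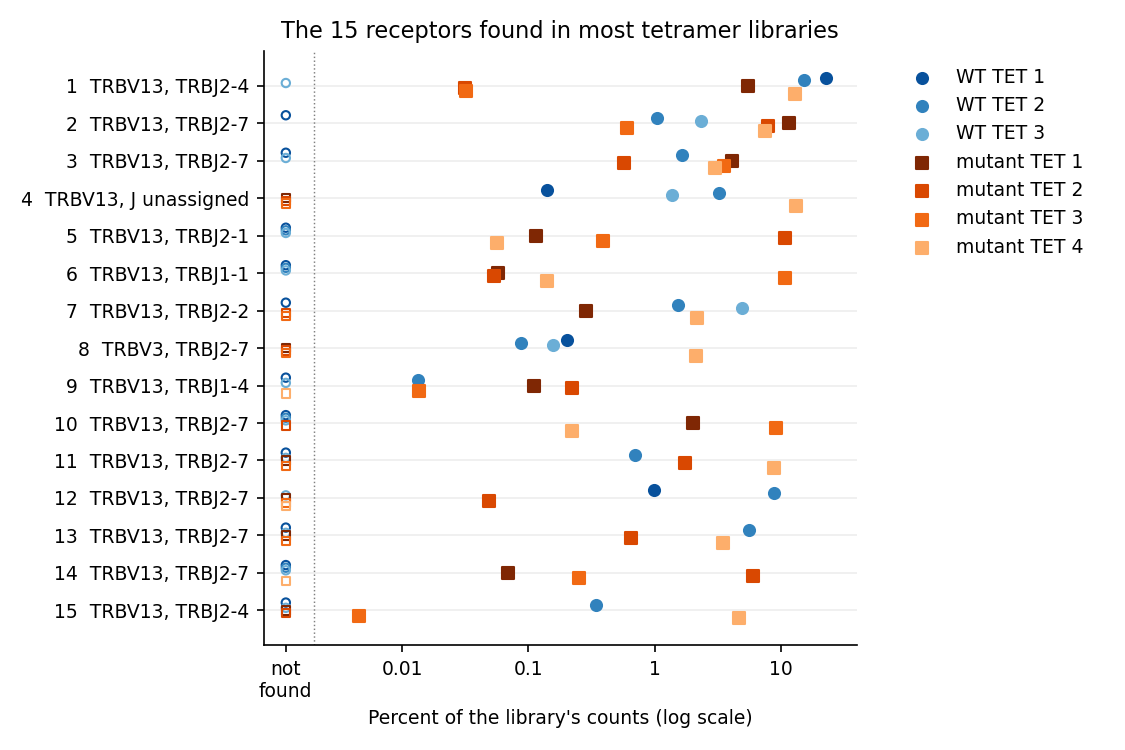
The 15 receptors found in most tetramer libraries, ordered from 1 (most libraries) and labelled by V family and J segment (y axis), with the percent of counts in each library on a log scale (x axis). Circles are WT and squares mutant libraries, and open symbols at the left mark libraries where the receptor was not found. Receptor 1 (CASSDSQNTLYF) lies between 5.49 and 22.7% in 4 libraries and at 0.0312 and 0.0319% in mutant TET 2 and 3, and receptors 5 and 6 are each at 10.8% in 1 mutant library and at most 0.387% elsewhere.

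At the edge of the rule, the largest receptors of exactly 2 TET libraries were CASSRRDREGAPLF (148 counts in WT TET 1, 2261 in WT TET 2), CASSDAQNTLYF (358 in WT TET 2, 5703 in mutant TET 4) and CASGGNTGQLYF (1767 in WT TET 2, 4 in mutant TET 2). The largest found in 1 TET library were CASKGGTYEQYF (868 counts), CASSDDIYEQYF (706 counts) and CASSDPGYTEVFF (581 counts), all TRBV13 and all in WT TET 2. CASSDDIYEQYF differs from the shared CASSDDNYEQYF at residue 7, and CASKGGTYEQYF from the shared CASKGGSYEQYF at residue 7.

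TRBV13 was the leading V family of the members, and its share moved with clone size. The tables do not separate the genes of the TRBV13 family. It was used by 201 of 378 members (53.2%), 29 of the 45 found in at least 3 libraries (64.4%) and 2064 of 4624 single-library receptors (44.6%). Within libraries, TRBV13 was at 75%, 84.6% and 75% of the members of WT TET 1 to 3 against 50.6, 60.2 and 48.0% of their single-library receptors. In mutant TET 1 to 4 it was at 52.4, 51.03, 52.7 and 57.3% of members against 43.4, 44.4, 44.4 and 43.5%. The difference was above 0 in 7 of 7 libraries, with a mean of 16.2 ± 8.77 percentage points (SD, n = 7). Large receptors of either set were more often TRBV13. Among single-library receptors of at least 10 counts TRBV13 was at 72.7%, which is above all members together by 19.5 points. Among members of at least 10 counts in a library it was at 73.02% (157 of 215), 0.310 points above the single-library receptors with the same minimum. Within libraries, among receptors of at least 10 counts there, members stood 20.3, 12.95 and 42.8 points above in WT TET 1 to 3 (11, 22 and 13 members) and 1.85, 1.48, 6.68 and 2.69 points above in mutant TET 1 to 4 (82, 100, 68 and 27 members). The minimum does not make the sets equal in size: the members above it had a median of 31 counts in all TET libraries together, and the single-library receptors 18. Of the other families, TRBV1 was at 13.2% of members and 10.9% of single-library receptors, TRBV5 at 5.56% and 9.04%, and TRBV19 at 4.23% and 7.16%.

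CDR3s that begin with CASSD were more frequent among members, with and without a minimum of 10 counts. The CDR3 opens with residues that the V segment encodes. In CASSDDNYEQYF and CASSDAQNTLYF the tables place the end of V at base 15, so the aspartate at residue 5 lies within it. Of the 201 TRBV13 members, 76 (37.8%) began with CASSD, against 489 of 2064 single-library TRBV13 receptors (23.7%). With both limited to at least 10 counts the shares were 39.5% (62 of 157) and 24.5% (230 of 938). CASG was the start of 19.4% of the members and 30.1% of the single-library receptors (17.8% and 29.9% at 10 counts or more). Serine at residue 4 was at 71.6% and 56.0%. An acidic residue between position 5 and the sixth from the end was present in 72.6% of the members and 63.2% of the single-library receptors, a basic residue in 28.4% and 31.2%, and tryptophan in 7.46% and 7.70%.

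Length differed little. Members had a mean CDR3 length of 13.8 ± 1.37 residues (SD over 378 receptors) and single-library receptors 13.9 ± 1.45. The mean within a library was lower for members in 6 of 7 libraries, with a mean difference of -0.35 ± 0.39 residues (SD, n = 7). At 10 counts or more in both sets, members were longer by 0.0209 residues. CDR3s of 12 residues were the exception. They made up 20.4% of TRBV13 members and 11.1% of TRBV13 single-library receptors, and 21.02% and 12.5% at 10 counts or more. This did not extend to shorter CDR3s. Over all V families, 11 residues were at 2.38% of members and 4.65% of single-library receptors. CDR3s of 12 residues or fewer were at 18.5% and 15.96%, and at 18.1% and 17.6% at 10 counts or more. Among receptors of at least 3 libraries, 14 of 45 (31.1%) used TRBJ2-7, against 15.8% of single-library receptors and 13.8% of all members.

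Part of this lies in 1 set of closely related receptors, which was noticed in the data and is described without a test. When members of one V family, J cluster and length that differ by 1 residue were linked, the largest group had 7 receptors. All were TRBV13, TRBJ2-7 and 12 residues long, with the form CASS, 3 varied residues and YEQYF. They were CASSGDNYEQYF, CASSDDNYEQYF, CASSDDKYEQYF, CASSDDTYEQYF, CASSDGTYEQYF, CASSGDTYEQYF and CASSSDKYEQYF. Residue 5 was aspartate, glycine or serine, residue 6 aspartate or glycine, and residue 7 lysine, asparagine or threonine. A sequence of each of 4 is printed here with its non-templated bases in capitals, since the 7 differ in how much of the middle the tables assign to a D segment.
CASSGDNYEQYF: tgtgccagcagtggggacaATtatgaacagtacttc
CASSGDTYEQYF: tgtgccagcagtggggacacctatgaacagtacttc
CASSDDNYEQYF: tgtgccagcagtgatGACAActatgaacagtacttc
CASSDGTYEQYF: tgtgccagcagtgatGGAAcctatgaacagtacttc
The first and second carry a stretch assigned to TRBD1, and the other pair has none named. Together the 7 receptors held 0.986, 21.3 and 2.33% of the counts of WT TET 1 to 3 and 17.6, 15.2, 13.5 and 20.1% of mutant TET 1 to 4. They were high in all 4 mutant libraries and in WT TET 2, and low in WT TET 1 and 3. The rule has a part in this, since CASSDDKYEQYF and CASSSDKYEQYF became members through mutant TET libraries alone. In mutant TET 1 to 4, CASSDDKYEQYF held 2.01, 0, 9.13 and 0.223% of counts and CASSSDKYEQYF 0.0694, 6.02, 0.250 and 0%. Most of the group's share in mutant TET 3 was thus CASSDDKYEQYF. All 7 were found in a CD8 library, where the group held a mean of 0.204% of counts and at most 1.30%, in WT CD8 1. Another 3 groups had 3 members each and held at most 0.289% of any TET library. In all, 42 of 378 members (11.1%) had another member at 1 residue, and 141 of 4624 single-library receptors (3.05%) did. For TRBV13 these shares were 15.4% (31 of 201) and 4.70% (97 of 2064). Counting any TET receptor as a neighbour, the shares were closer, at 34.1% of members and 25.6% of single-library receptors (44.3% and 34.7% for TRBV13).

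Members had more nucleotide sequences than single-library receptors, but the mean was close to 1. Over all TET libraries a member had 1.14 ± 0.419 distinct sequences (SD over 378 receptors) and a single-library receptor 1.02 ± 0.128, and 48 members (12.7%) had at least 2, against 74 single-library receptors (1.60%). A receptor of several libraries has more places in which to show a further sequence, so the rule itself raises this number. Within a library the mean was 1.07 ± 0.0582 for members and 1.014 ± 0.00692 for single-library receptors (SD, n = 7), and it was higher for members in 6 of 7 libraries.

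Most sharing was by the same nucleotide sequence. Of the 378 members, 361 (95.5%) had at least 1 nucleotide sequence in 2 or more TET libraries, and 330 of these had no other. In 17 members no sequence recurred. Counted over the 21 pairs of TET libraries there were 517 shared receptors, 477 of them (92.3%) with an identical sequence. The same count over the 28 pairs of CD8 libraries gave 1402 of 4277 (32.8%), and single pairs ranged from 40 to 100% in TET and from 24.4 to 62.9% in CD8. The medians over pairs were 92.6% in TET and 31.8% in CD8. The ranges overlap, and the lowest TET pair, WT TET 1 with mutant TET 2, had only 5 shared receptors. Pairs share libraries, so no test was made.

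Non-templated bases stood beside this as follows. Clonotypes (nucleotide sequences) found in 2 or more TET libraries had 3.23 ± 2.64 of them (SD over 367 clonotypes), and those of 1 TET library 3.57 ± 2.72 (SD over 4764). Clonotypes found in 2 or more CD8 libraries had 2.41 ± 2.44 (SD over 1083), and those of 1 CD8 library 3.56 ± 2.76 (SD over 51510). Shared CD8 clonotypes had 0 such bases in 27.4% of cases and single ones in 12.3%, and the same shares in TET were 15.3% and 12.4%. Within TET libraries, members had fewer non-templated bases in 6 of 7, by 0.37 ± 0.22 on average (SD, n = 7). These numbers rest on the tables' boundaries, and V and J overlapped in 3.54% and 2.46% of the shared and single TET clonotypes and in 6.56% and 2.10% of the CD8 ones. Without those clonotypes the means were 3.35 and 3.66 in TET and 2.58 and 3.64 in CD8. Whether identical sequences in TET came from separate joining events in each mouse or from other sources was not tested.

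**Figure D3:**
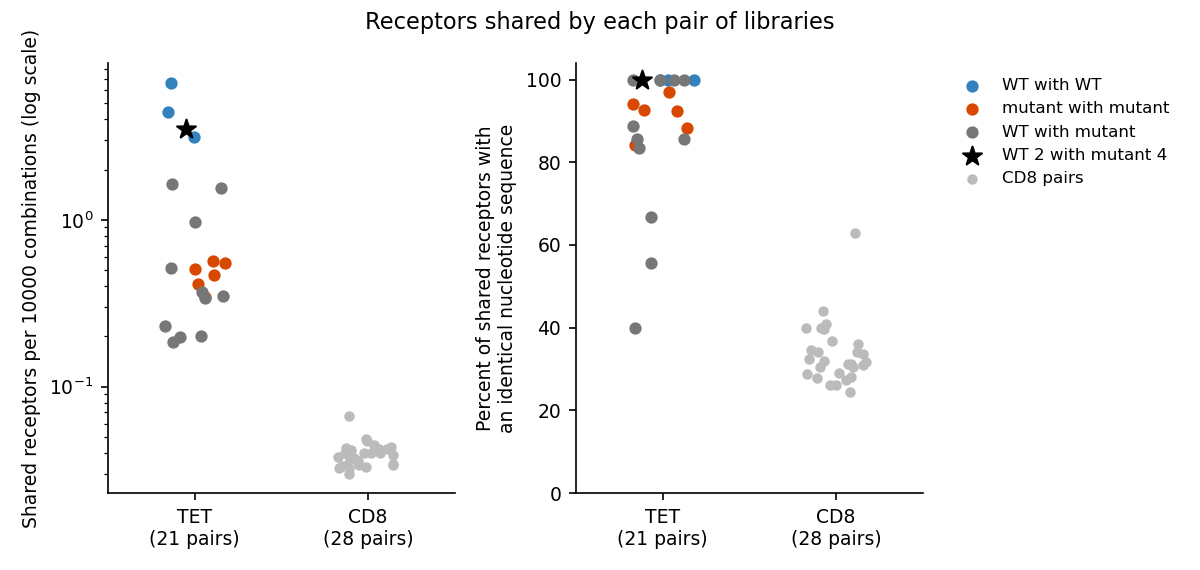
Each point is a pair of libraries. The left panel gives the shared receptors per 10000 combinations of a receptor of one with a receptor of the other, on a log scale, and the right panel the percent of shared receptors with an identical nucleotide sequence in both. The 21 TET pairs lie at 0.185 to 6.66 per 10000 and the 28 CD8 pairs at 0.0301 to 0.0671. TET libraries hold 95 to 2159 receptors and CD8 libraries 2013 to 9404, and the part of library size in this gap was not tested. The star, WT TET 2 with mutant TET 4, lies at 3.51 among the 3 pairs of WT libraries.

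Sharing was uneven among pairs. Mutant TET 2 with 3 shared the most receptors (162), followed by mutant TET 1 with 2 (119). Relative to the number of possible combinations, WT TET 1 with 2 was highest (6.66 shared per 10000), followed by WT TET 2 with 3 (4.42), and WT TET 1 with 3 was at 3.13. The pairs of mutant libraries were at 0.344 to 0.562 per 10000. Of the 12 pairs across strains, WT TET 2 with mutant TET 4 was at 3.51, and the other 11 were at 0.185 to 1.65. The WT TET libraries held 95 to 119 receptors, the mutant TET libraries 383 to 2159 and the CD8 libraries 2013 to 9404. The part of these numbers in the measure was not tested.

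WT TET 2 and mutant TET 4 had 16 receptors in common. These held 40.2% (39.4 to 40.9%) of the counts of WT TET 2 and 90.7% (90.4 to 90.9%) of those of mutant TET 4, and they included 12 and 16 of the 20 largest receptors of these libraries. All 16 had an identical nucleotide sequence in both (18 clonotypes in all), 14 were TRBV13 and the remaining pair TRBV3, and all 16 used the TRBJ2 cluster. In mutant TET 4 the largest were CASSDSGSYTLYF (13.1%), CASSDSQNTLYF (12.99%), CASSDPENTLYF (9.90%), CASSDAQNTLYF (9.48%), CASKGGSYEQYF (8.81%) and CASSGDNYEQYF (7.49%). In WT TET 2 the same receptors were at 3.24, 15.3, 1.71, 2.39, 0.702 and 1.04%. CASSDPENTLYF had 2 nucleotide sequences and both were in both libraries. They are shown with differences in capitals.
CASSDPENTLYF sequence 1: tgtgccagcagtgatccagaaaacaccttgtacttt
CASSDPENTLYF sequence 2: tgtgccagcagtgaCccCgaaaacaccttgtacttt
Sequence 1 had 212 counts in WT TET 2 and 3171 in mutant TET 4, and sequence 2 had 44 and 2787. No other TET library held this receptor, and 6 of the 16 were found in these 2 libraries only.

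The 16 did not stand in one ratio. The share in mutant TET 4 divided by that in WT TET 2 ranged from 0.631 for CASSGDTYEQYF to 65.4 for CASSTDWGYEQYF (TRBV3, 1 count in WT TET 2), with a median of 4.89, and 14 of 16 were higher in mutant TET 4. Thinned to 2536 counts each, the libraries still shared 15 or 16 receptors. The CD8 libraries of the same numbers, WT CD8 2 and mutant CD8 4, shared 0.0342 per 10000 combinations, within the range of CD8 pairs, and 56 of their 167 shared receptors had an identical sequence. Mutant TET 4 had the most counts of the TET libraries and the fewest receptors of the mutant ones (383). What gave this pair its common receptors was not tested. Without both libraries, 319 shared receptors were left.

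**Figure D4:**
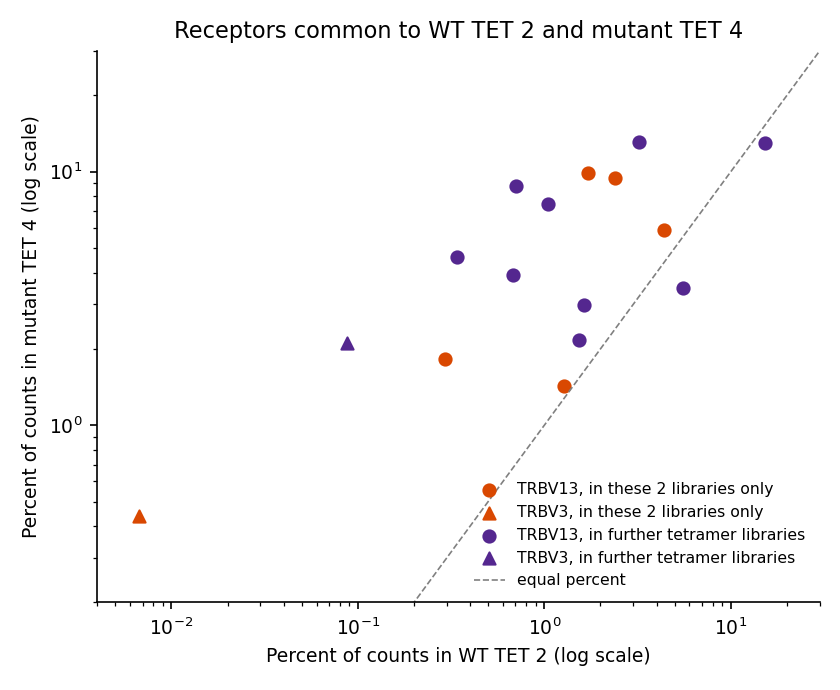
The 16 receptors common to WT TET 2 (x axis) and mutant TET 4 (y axis), by percent of counts in each library on log scales. Circles are TRBV13 and triangles TRBV3, orange marks receptors of these 2 libraries only, and the dashed line marks equal percent. The 14 points above the line are receptors with a higher share in mutant TET 4, and the ratio spans 0.631 to 65.4.

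The CD8 libraries took no part in the choice of members, so detection there was tested. That test is not free of the rule. With libraries of the same strain and number taken as 1 mouse, a member came from 2 or more mice and a single-library receptor from 1. Members also had more counts in all TET libraries together (median 15 against 3). Both can raise detection in CD8 libraries of these mice, and their part in the result was not tested. In each of the 8 CD8 libraries a larger share of the members was found than of the single-library receptors. In WT CD8 1 to 4, 4.76, 8.73, 6.88 and 5.56% of members were found, against 1.06, 4.22, 3.31 and 3.27% of single-library receptors. In mutant CD8 1 to 4 the values were 5.29, 7.14, 6.35 and 6.08% against 2.62, 2.68, 2.47 and 3.46%. The difference was 3.46 ± 0.849 percentage points (SD, n = 8), above 0 in 8 of 8 libraries (two-sided exact sign-flip permutation p = 0.00781, the smallest that 8 libraries allow, adjusted 0.0469 over 6 tests). The p covers the spread between CD8 libraries for these receptors, not between sets of receptors. The difference was above 0 in the 24 alternatives tried, over a range of 0.548 to 11.004 points. The unadjusted p was the smallest possible in each, so it does not rank them, and with 7 CD8 libraries that smallest p is 0.0156, or 0.0938 when adjusted over 6 tests. The size moved by more than 1.5 times without mutant TET 2 (6.29 points), without mutant TET 3 (5.59 points) and for receptors of at least 3 TET libraries (11.004 points). It was 1.44 points when CD8 entries with at least 10 times their count in a TET library were left out, and 0.548 points for CD8 entries whose nucleotide sequence was in no TET library. Against single-library receptors of at least 10 counts it was 2.51 points. Between strains the difference did not pass its test (WT 3.52 and mutant 3.41 points, exact permutation p = 0.914, adjusted 0.971 over 5 tests). These 5 tests were adjusted apart from the 6, and no adjustment over both sets was made. The adjusted 0.0469 therefore holds for the 6 tests alone.

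**Figure D5:**
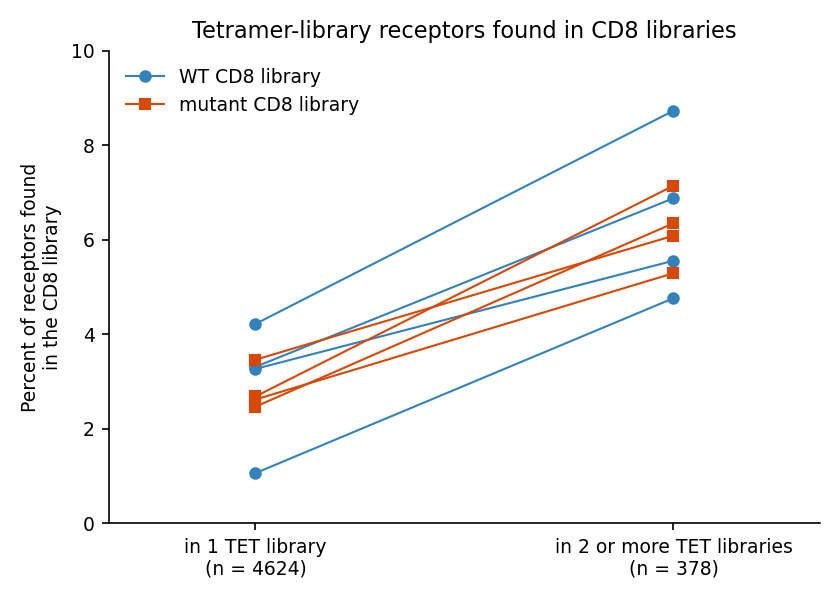
Percent of receptors found in a CD8 library (y axis) for receptors of 1 TET library (left) and of 2 or more TET libraries (right), with 1 line for each of the 4 WT and 4 mutant CD8 libraries. Every line rises, from 1.06 to 4.22% on the left to 4.76 to 8.73% on the right.

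Over all CD8 libraries, 118 of 378 members (31.2%) were found in at least 1, against 818 of 4624 single-library receptors (17.7%), and 49 (12.96%) against 168 (3.63%) in at least 2. Of the 45 members of at least 3 TET libraries, 24 (53.3%) were found. Of the 118, 96 were found by a nucleotide sequence that the TET libraries also held and 41 by another (10.8% of members, and 7.27% of single-library receptors).

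Among receptors found in a CD8 library, neither the number of nucleotide sequences nor clone size passed its test between members and single-library receptors. Nucleotide sequences per receptor were 1.07 ± 0.0436 for members and 1.07 ± 0.0531 for single-library receptors (SD, n = 8), a difference of -0.000854 (two-sided exact sign-flip permutation p = 0.977, adjusted 0.977). Their mean log2 count was 1.87 ± 0.53 and 1.76 ± 0.41, a difference of 0.11 ± 0.27 that was above 0 in 5 of 8 libraries (exact p = 0.258, adjusted 0.773).

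The share of CD8 counts that members held was small in both strains. It was 2.24, 0.564, 0.371 and 0.383% in WT CD8 1 to 4 and 0.397, 0.466, 0.470 and 0.779% in mutant CD8 1 to 4. The ranges overlapped, and WT CD8 1 stood above the other 7. The difference, mutant minus WT, was -0.363 points (two-sided exact permutation p = 0.771, adjusted 0.926, smallest possible p 0.0286) and turned to 0.0884 points without WT CD8 1. That library held 172 counts of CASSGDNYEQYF (1.00%), and the other CD8 libraries held 0 to 21. It also held 33 counts of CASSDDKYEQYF, 29 of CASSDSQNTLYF, 28 of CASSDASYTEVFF and 19 of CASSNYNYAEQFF. The second receptor by mean CD8 share was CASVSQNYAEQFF, which had 149 counts in mutant CD8 4 and 0 in the others, and 1121 counts in the same-numbered mutant TET 4. Its other TET holder was WT TET 1, with 1 count.

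Whether a mouse's members were found in its own CD8 library rather than in those of other mice was asked of 7 mice, taking libraries of the same strain and number as 1 mouse. WT mice 1 to 3 had only 16, 26 and 20 members, so their percents rest on few receptors, and mutant mice 1 to 4 had 166, 292, 220 and 75. Own libraries held 18.8, 11.5 and 5% of the members of WT mice 1 to 3, against a mean of 2.08, 12.8 and 11.7% in the other WT CD8 libraries. In mutant mice 1 to 4 the values were 8.43, 6.16, 5.91 and 16% against 8.03, 5.37, 5 and 11.1%. The difference was 2.25 ± 7.24 points (SD, n = 7), above 0 in 5 of 7 mice (two-sided exact sign-flip permutation p = 0.578, adjusted 0.867). It exceeded that of single-library receptors by 1.99 ± 8.15 points (exact p = 0.578, adjusted 0.867). Neither test passed, and the spread between mice was larger than the difference.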

How the data were processed

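TCRβ amplicons were made by 5′RACE with 9-nt molecular identifiers, per the labels' protocols. Each deposited table lists the nucleotide CDR3s of 1 library, with count, fraction, length and the V, D and J boundaries. The sources used here do not give the caller, or whether counts are reads or identifiers. Fractions were not used: shares were recomputed from the deposited counts. In CD8 tables, 4 alpha chain entries (6 counts) were dropped. J segments were assigned from the last CDR3 residues, and 6 of the 378 shared receptors stayed unassigned. A receptor without an entry in a table has 0 counts there, and 3 counts set the limit of an unseen share.

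The labels call each library a separate replicate. Libraries of one strain and number were treated as the same mouse because the design names 4 mice a strain for both fractions. The design text also says that there were no duplicate samples from the same mouse, so this pairing is uncertain. The tests of own against other CD8 libraries depend on it. Numbers were not taken to pair strains. The members and lists were chosen with earlier results of these data known. Because presence in the TET tables chose the members, TET properties are given without a test. The 6 tests use the CD8 tables: exact sign-flip permutation over libraries or mice (256 or 128 sign assignments) and exact permutation of 4 against 4 libraries (70), two-sided, Benjamini-Hochberg adjusted over the 6. The choice of members and the detection test were checked on simulated data first. The test of own against other CD8 libraries was run there without a check of its result, and the results of the other tests were not checked there. Further tests on the CD8 tables compared the strains in the results of the sign-flip tests, by exact permutation. These strain comparisons were adjusted as a separate set. No adjustment over both sets together was made, so a pass over the 6 tests depends on keeping the sets apart.

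Named receptors were the 15 of most TET libraries, the 6 largest in mutant TET 4 among those common with WT TET 2, the 5 with most nucleotide sequences, the 5 highest in CD8, and the 5 largest just inside and just outside the rule. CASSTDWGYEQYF and the related groups were named after their values were seen. Python 3.11.15, numpy 2.4.6, pandas 2.3.3 and scipy 1.17.1 were used.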

Additional observations from a re-analysis of the deposited data

Results flagged for a closer look

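In 26 groups of 4 libraries, 1 library lay far from the other 3 in 7 cases. Most of these cases are shares of receptors chosen by their presence in the same TET libraries, and the receptors of 1 library are not independent of each other. The number of cases is therefore not set against a chance rate. The share of counts held by shared receptors was 93.5% in mutant TET 4, against 41.9 to 48.2% in mutant TET 1 to 3. It was 2.24% in WT CD8 1, against 0.371 to 0.564% in WT CD8 2 to 4. Among mutant TET libraries, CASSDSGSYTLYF was at 13.1% in library 4 and at 0 counts in the other 3, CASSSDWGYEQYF at 2.11% in library 4 and at 0 counts in the other 3, and the 15-residue TRBV13, TRBJ2-2 receptor at 2.18% in library 4 and at 0.283% or less in the others. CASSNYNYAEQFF was at 10.8% (10.7627%) in library 2 and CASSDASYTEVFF at 10.8% (10.8167%) in library 3. No cause was tested.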

How the results depend on the processing

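The higher detection of shared receptors in CD8 libraries kept its direction in all 24 alternatives, 3.24 to 6.29 points when 1 library was left out. Its unadjusted p stayed at the smallest possible value, and without any 1 CD8 library (7 left) that value, 0.0156, adjusts to 0.0938 over 6 tests and does not pass. The other tests of CD8 libraries had unadjusted p-values above 0.05 in their alternatives with 1 exception, not adjusted over the 6 tests. Counting only CD8 entries whose nucleotide sequence was in no TET library, the share held by members, mutant minus WT, was -0.0984 points (unadjusted exact permutation p = 0.0286, the smallest possible). Leaving out 1 library was done with all CD8 entries counted, not with this restriction. It gave -0.536 to 0.0884 points for the share held by members, mutant minus WT. For log2 clone size it gave 0.0713 to 0.385, and for nucleotide sequences per receptor -0.0141 to 0.0181. Own against other CD8 libraries was at 0.172 to 3.72 points, and its excess over single-library receptors at -0.289 to 3.43 points. With the replicate block, pairing same-numbered WT and mutant libraries, the strain difference was -0.363 points (exact p = 0.875), and without the mouse as a block the difference of own against other libraries was 2.25 points (exact p = 0.383). The number of shared receptors was 119 to 368 with 1 TET library left out, 235 without entries of 1 count, 179 without entries under 3 counts, a mean of 126.65 at equal depth and 48 when at least 2 nucleotide sequences were required, an alternative chosen after the data were seen. The TRBV13 difference between members and single-library receptors, 8.54 points, was -19.5 against single-library receptors of at least 10 counts. The length difference, -0.075 residues, was 0.0209 with both sets at 10 counts or more, also chosen afterwards. Counting by nucleotide clonotype gives no value for nucleotide sequences per receptor. Depth limits the WT TET libraries most, where 0 counts allow 0.0201 to 0.118% of a library.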
